A study of Schizosaccharomyces pombe with 12 samples.

Results

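Of the 4857 *S. pombe* genes counted in haploid and diploid cultures, 82 took a lower share of the mRNA in diploids than in haploids both with and without a DNA-damaging treatment, while their share moved little with the treatment itself. They were chosen from the measured values by a fixed rule. A gene had to average at least 5 CPM, the count of a gene scaled to a common total of gene-assigned reads, over the 12 libraries, to have a Diploid/Haploid ratio of mean CPM of 0.83 or less in untreated (NT) and in treated (MMS) cultures with each of the 3 diploid libraries below each of the 3 haploid libraries, and to keep an MMS/NT ratio between 0.8 and 1.25 in both ploidies. The ratios between the 4 groups are therefore a description of how the genes were chosen and carry no test.

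Fission yeast normally grows as a haploid, and a diploid cell is larger and carries each gene in a second copy. Cells of either ploidy grow mainly in G2 and divide at a size set by the kinases that restrain or release Wee1, the inhibitor of mitotic entry. MMS (methyl methanesulfonate) alkylates DNA, which blocks replication forks and calls on the repair and checkpoint pathways. The mRNA content of a yeast cell tends to scale with its size, so a gene can fall behind the rest of the transcriptome, and take a smaller share, without losing transcripts per cell.

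The haploid strain was h- *smt-0* with *his3D-1*, *ura4-D18*, *leu1-32* and *ade6-M210*, and the diploid, a single strain obtained by protoplast fusion, was homozygous for mating type and for the first 3 of these markers, with *ade6-M210* opposite *ade6-M216*. With a single strain of each ploidy, ploidy cannot be told apart from other differences between the strains, their *ade6* alleles included. Cultures in rich YES medium at 32 °C were split and kept without drug or with 0.0075% MMS for 4 h, which gave 3 libraries in each of the groups Haploid NT, Diploid NT, Haploid MMS and Diploid MMS. Equal numbers of cells were harvested, and ERCC RNA standards were added before poly(A) selection and sequencing.

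The libraries held 15684278 to 25397182 reads assigned to *S. pombe* genes. *ura4+*, deleted in both strains, had 0 counts in all 12 libraries and *his3+* had 1 to 10. All 6 markers of M (h-) cells were counted, with *mam2+*, the P-factor receptor, at 194 to 300.3 CPM, and the 4 P-cell markers were counted as well, *map2+* at 46.1 to 317, *map3+* at 5.604 to 15.7, *map1+* at 21.2 to 50.3 and *sxa1+* at 1215 to 1683 CPM. Haploid NT 1 stood apart, with 1.90% of its reads from the ERCC standards against 3.40% and 3.71% in the other Haploid NT libraries. Culture 1 was the lowest of the haploid cultures, in NT and again in MMS, for 28 of the 82 members (34.1%, against 37.1% of the 4450 genes with at least 5 CPM) and the highest in both for 23 (28.0% against 28.8%).

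Of those 4450 genes, 623 met the ratio and the no-overlap steps in NT and 218 met them in MMS. Both treatments were met by 152. The MMS/NT band then took out 70, of which 40 failed in diploids only, 5 in haploids only and 25 in both. In 62 of the 152 genes the diploid MMS/NT ratio lay above the band and in 3 below it. The 82 that stayed made up 1.84% of the 4450, and the mirror-image rule, for genes higher in diploids, found 43. Leaving out Diploid MMS 3 gave 137 genes, of which 61 were among the 82, and leaving out both libraries of haploid culture 1 gave 187, of which 60 were. Fewer libraries make the no-overlap step easier to meet, and leaving out any 1 library gave from 77 genes (without Diploid NT 3) to these 137. At the limits, *cox5+* was just inside in NT (ratio 0.8296) and *pph3+* just outside (0.836), *atg3+* just inside in MMS (0.8297) and *spe1+* just outside (0.831), *cut1+* just inside the diploid band (1.248) and *bud6+* just outside it (1.251), and *cdc17+* just inside the haploid band (0.801) with *sod22+* just outside (0.799).

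As a set, the members supplied 2.24% to 2.44% of the reads in Haploid NT, 2.29% to 2.33% in Haploid MMS, 1.62% to 1.65% in Diploid NT and 1.76% to 1.83% in Diploid MMS. All 6 haploid libraries thus lay above all 6 diploid ones, which the rule fixes within each treatment, and the diploid share was a little larger with MMS than without. The 6 libraries of a ploidy came from split cultures and are not 6 independent cultures. The median Diploid/Haploid ratio over members was 0.709 in NT (0.440 to 0.8296), beside 0.955 for all 4450 genes, and 0.788 in MMS (0.499 to 0.8297), beside 1.01. The ratio was farther from 1 in NT in 68 members and in MMS in 14, and the median of all genes was also lower in NT. CPM ratios are not centred on that median, so this split holds for CPM only. With edgeR's library scaling (TMM), which brings the median log2 fold change of all genes to 0.01 in both treatments, that of the members was −0.42 in NT and −0.35 in MMS. On that scale *mam3+*, 1 of the 68, had −0.79 in NT and −0.84 in MMS. For 58 members every diploid library lay below every haploid library over both treatments together, which held for 3.82% of all genes. Without Haploid NT 1, which leaves fewer libraries to separate, this count was 68, and the share of all genes is not given. Within a single treatment the rule required it, and 22.0% of all genes met it in NT and 11.3% in MMS. These are bulk cultures, in which fewer cells at the stage that expresses a gene and less RNA of that gene per cell cannot be told apart.

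**Figure D1:**
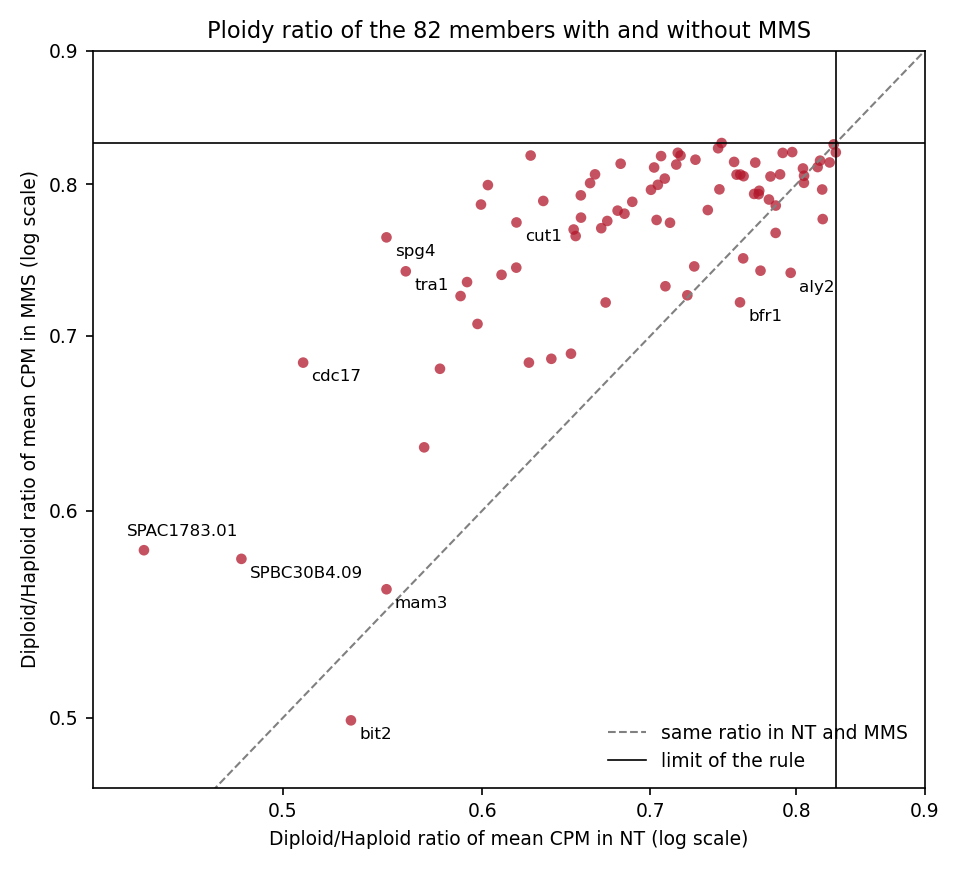
Diploid/Haploid ratio of mean CPM of each of the 82 members (points) in NT (horizontal, log scale) and in MMS (vertical, log scale). The solid lines mark the limit of 0.83 and the dashed line equal ratios, with 68 members above the dashed line, where the NT ratio is the lower of the pair. The ratios are not centred on the median of all genes, which was 0.955 in NT and 1.01 in MMS. The 4 lowest members in MMS, *bit2+*, *mam3+*, SPBC30B4.09 and SPAC1783.01, sit below the rest.

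The direction holds for shares of mRNA only. By the study's methods the ERCC standards were added in equal volumes to RNA extracted from equal numbers of cells. They stand for an amount per harvested cell only if RNA was recovered equally, which they do not measure. When the counts were scaled to these standards, the same members had a median Diploid/Haploid ratio of 1.35 in NT (0.850 to 1.58), against 1.78 for all genes. In MMS it was 2.105 (1.34 to 2.23), against 2.71. The ratio was above 1 for 79 members in NT and for all 82 in MMS. The 3 at or below 1 in NT were SPAC1783.01 (0.850), SPBC30B4.09 (0.935) and *cdc17+* (0.949). Without Haploid NT 1 the medians in NT became 1.72 for the members and 2.33 for all genes, and all 82 members were above 1, the lowest at 1.002. On this scale no gene met the rule, and the haploid median MMS/NT was 0.6897 for the members and 0.656 for all genes, beside 1.09 and 1.02 in diploids. Without Haploid NT 1 the haploid medians were 0.868 and 0.863.

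**Figure D2:**
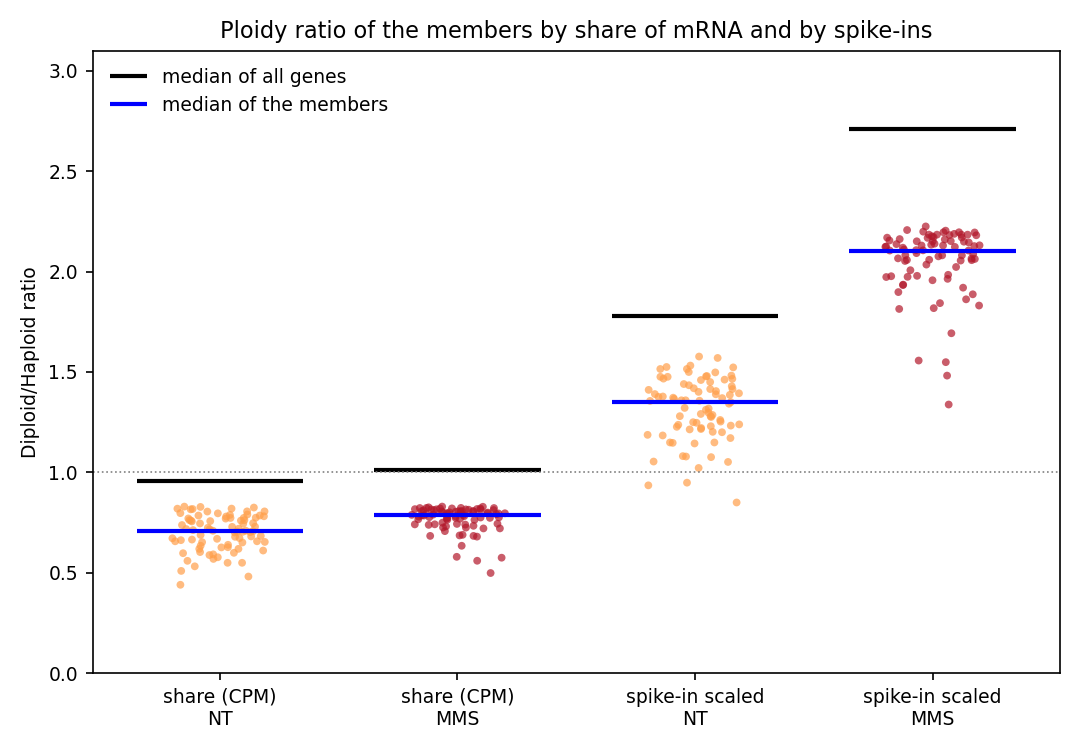
Diploid/Haploid ratio of each member (points, jittered sideways) by share of mRNA (CPM, the 2 columns on the left) and after scaling to ERCC standards (right), in NT and in MMS. The blue bars are the medians of the 82 members and the black bars those of the 4450 genes. All members are below 1 by share, whereas after scaling to the standards 3 are below 1 in NT and none in MMS.

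Chromosome segregation was represented by 4 members, each with a lower share in diploids. *cut1+* encodes separase, the protease that opens cohesin rings at anaphase, and *cut2+* its inhibitor securin. *cut1+* gave 279, 386 and 378 CPM in Haploid NT, 293, 375 and 374 in Haploid MMS, 201, 236 and 209 in Diploid NT and 262, 267 and 277 in Diploid MMS, ratios of 0.619 in NT and 0.774 in MMS. Every diploid library was below every haploid library, and the lowest haploid values in both treatments came from culture 1. *cut2+* gave 68.3, 92.5 and 84.9 CPM in Haploid NT, 72.7, 80.4 and 83.1 in Haploid MMS, 58.7, 58.1 and 59.3 in Diploid NT and 65.4, 64.8 and 62.2 in Diploid MMS, ratios of 0.717 in NT and 0.814 in MMS. The 6 diploid values of *cut2+* lay within a narrow range that did not reach the haploid ones. *cnd1+*, a non-SMC subunit of condensin, which compacts mitotic chromosomes, gave 212, 248 and 241 CPM in Haploid NT, 202, 251 and 242 in Haploid MMS, 149, 155 and 157 in Diploid NT and 187, 177 and 175 in Diploid MMS. Its ratios were 0.657 in NT and 0.777 in MMS, with no overlap between ploidies. *mis13+*, of the MIND complex that joins kinetochores to microtubules, was counted at 37.9 ± 4.65 CPM (SD, n = 3) in Haploid NT and 29.8 ± 1.65 in Diploid NT, with a ratio of 0.785 in both treatments. Its highest diploid value with MMS, 33.4 CPM, reached the lowest Haploid NT value, 33.2 CPM. In edgeR's model of all genes the log2 fold change of *cut1+* was -0.61 ± 0.13 (SE) in NT and -0.38 ± 0.13 (SE) in MMS and that of *cnd1+* -0.53 ± 0.09 (SE) in NT and -0.37 ± 0.09 (SE) in MMS.

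Other genes of the same machinery were compared by edgeR's call, which is not the measure of the rule. By that call *cut2+* and *mis13+* were themselves not lower in NT, and none of the 4 members was called in MMS. Of 32 tested genes of the spindle and spindle pole body, 3 were called lower in Diploid NT at an adjusted p under 0.05 in edgeR's quasi-likelihood test (Benjamini-Hochberg) and 1 higher. The lower ones were *cut1+* itself, *cut7+*, a kinesin of the bipolar spindle (log2 fold change −0.53), and *cut12+*, a spindle pole body component (−1.13). *cut12+*, the single gene of this list also called in MMS (−0.79), was not a member because its share was larger with MMS in both ploidies, by 0.61 and 0.94 on the log2 scale. Of 24 cohesin and condensin genes, *cnd1+* and the condensin ATPase gene *cut14+* (−0.45) were called lower in NT, and none in MMS. Of 28 kinetochore genes, *mis17+* (−0.32) was called lower in NT, and 1 gene was called higher in each treatment. The median log2 fold change over each of the 3 lists lay between −0.16 and 0.05 in both treatments.

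Cell size and septation gave 5 members, whose shares were also slightly smaller with MMS in both ploidies. *cdr1+* and *cdr2+* encode the kinases of cortical nodes through which cell size reaches Wee1. *cdr1+* gave 264, 270.0 and 269.6 CPM in Haploid NT, 239.9, 217 and 217 in Haploid MMS, 201, 202 and 190.1 in Diploid NT and 177, 180.2 and 169 in Diploid MMS. Its Haploid NT values were nearly identical, and the diploid values lay below all 6 haploid ones in both treatments (ratios 0.738 in NT and 0.782 in MMS). *cdr2+* gave 179.9, 160.0 and 162 CPM in Haploid NT, 171, 149 and 146 in Haploid MMS, 134, 138 and 132 in Diploid NT and 122, 125 and 131 in Diploid MMS, a smaller separation (ratios 0.805 in NT and 0.811 in MMS), still without overlap. *bgs1+*, the synthase of linear 1,3-beta-glucan in the primary septum, gave 1005, 937 and 935 CPM in Haploid NT, 932, 825 and 863 in Haploid MMS, 764, 848 and 740.4 in Diploid NT and 737, 738 and 665 in Diploid MMS. Its ratio was close to the limit of the rule in both treatments (0.818 and 0.817), and Diploid NT 2 lay above Haploid MMS 2, so the ploidies overlapped across treatments. The remaining 2 were *fic1+*, a membrane anchor of the contractile ring (ratios 0.773 in NT and 0.793 in MMS), and *cfh2+*, annotated as a chitin synthase regulatory factor (ratios 0.7698 in NT and 0.793 in MMS).

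Among the 22 tested genes of mitotic entry and cell size, *cdr1+* was the single gene called lower in NT (log2 fold change -0.36 ± 0.08, SE), and edgeR called none in MMS. The fold changes of *wee1+* were −0.16 in NT and −0.21 in MMS, those of the activating phosphatase gene *cdc25+* −0.08 and −0.07, and those of *pom1+*, the polarity kinase that restrains Cdr2, 0.20 and 0.11, with adjusted p values (edgeR) from 0.23 to 0.81. Of 34 genes of cytokinesis and septation, none was called lower in either treatment and 1 was called higher in NT, *eng1+*, the glucanase that splits the septum (0.88).

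**Figure D3:**
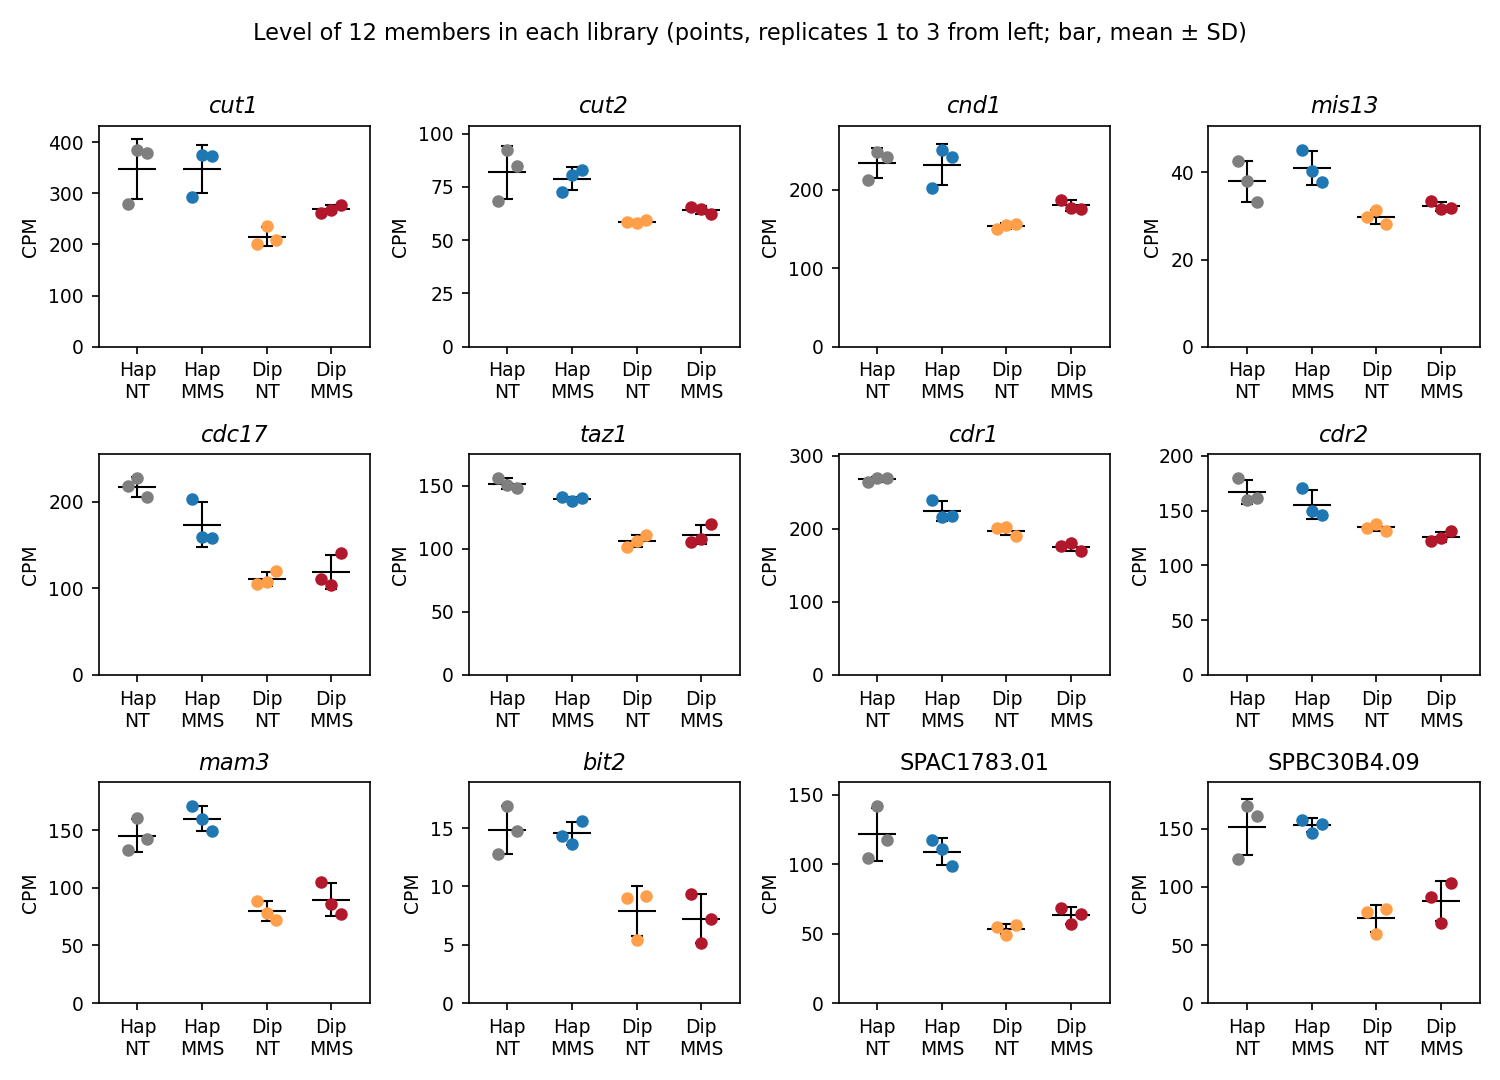
CPM of 12 members in each library (points, replicates 1 to 3 from left to right within a group), with the mean ± SD of 3 libraries (black bars). Each axis starts at 0. In 11 of the 12 the diploid points lie below all haploid points, and in *mis13+* Diploid MMS 1 reaches Haploid NT 3.

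To show the sequence context of these genes, the stretch before the start was searched for the recognition letters of factors that drive waves of transcription in the cell cycle and in stress. GTAAACA is the site of the forkhead factors of the mitotic wave, and both strands of the 250 bases before the more upstream of the deposited and RefSeq starts were read (RefSeq ASM294v3). GTAAACA occurred before 16 members (19.5% of the 82 beside 14.4% of the 4450 genes), among them *cut2+*, *cnd1+*, *mis13+*, *taz1+* and *tra1+*. TGACGT, the CRE bound by Atf1 and by Pcr1, the product of another member, occurred before 7 (8.54% beside 4.29%), among them *taz1+*, *grx2+*, *git5+* and *atg3+*. ACGCGT, the MCB box of the G1/S wave, occurred before *osh41+* and *pom34+* (2.44% beside 2.18%). AACCCT, the histone box, and CAGTCAC, the HomolD box, were less frequent before members, at 4.88% beside 7.89% and 1.22% beside 3.26%. None of these motifs overlaps another in the stretches printed here, which run 5′ to 3′ on the strand of the gene with the matches in capitals, GTAAACA or its reverse complement TGTTTAC in *cut2+*, *cnd1+*, *mis13+* and *taz1+*, and TGACGT in *taz1+*. They are shown for the mitotic and telomere members that held a match and are letter matches, not measured binding. *cut1+* and *tel1+* held neither GTAAACA nor TGACGT. The stretch before *cnd1+* holds 1 of its 2 matches.
cut2, chrII:2204262-2204341, minus strand: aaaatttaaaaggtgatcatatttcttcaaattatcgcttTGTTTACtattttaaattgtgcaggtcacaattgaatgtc
cnd1, chrII:3200001-3200080, plus strand: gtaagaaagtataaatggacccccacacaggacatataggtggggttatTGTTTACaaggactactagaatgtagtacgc
mis13, chrII:1155627-1155706, minus strand: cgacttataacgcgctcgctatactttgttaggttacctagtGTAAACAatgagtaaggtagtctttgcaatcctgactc
taz1, chrI:3093609-3093728, minus strand: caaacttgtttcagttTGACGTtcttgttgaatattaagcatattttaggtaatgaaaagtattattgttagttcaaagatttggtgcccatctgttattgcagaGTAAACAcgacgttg

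Replication, telomere and chromatin genes gave 6 members. *cdc17+*, DNA ligase I, which joins Okazaki fragments, gave 218, 228 and 206 CPM in Haploid NT, 204, 159.6 and 159 in Haploid MMS, 105, 107 and 119.8 in Diploid NT and 111, 104 and 141 in Diploid MMS. Its ratios were 0.509 in NT and 0.684 in MMS, and no diploid value reached a haploid one. In NT *cdc17+* differed by -0.90 ± 0.13 (SE) on the log2 scale. Of 49 tested replication genes, 4 were called lower in NT and none in MMS: besides *cdc17+* they were *cdc1+*, a subunit of polymerase delta (−0.60), *mcm5+* of the replicative helicase (−0.55) and *rfc1+* of the clamp loader (−0.30). *cdc1+* met both ploidy steps but not the diploid band, with a log2 fold change of 0.41 between Diploid MMS and Diploid NT.

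*taz1+*, which binds the double-stranded telomere repeat, gave 156, 151 and 149 CPM in Haploid NT, 141, 138 and 140.3 in Haploid MMS, 102, 106 and 111 in Diploid NT and 106, 108 and 119.8 in Diploid MMS. The 4 groups of *taz1+* were tight, and the highest diploid value lay well below the lowest haploid one (ratios 0.7004 in NT and 0.796 in MMS). *tel1+*, the ATM kinase of telomere maintenance and the damage response, was lower in the same manner at 103, 120.2 and 123 CPM in Haploid NT against 81.1, 83.03 and 81.3 in Diploid NT (ratios 0.709 in NT and 0.804 in MMS). Of 12 telomere genes *taz1+* and *rif1+* (−0.34), whose product is recruited by Taz1, were called lower in NT and none in MMS. Of 50 repair and checkpoint genes 3 were lower in NT, *tel1+*, *rad8+*, a ubiquitin ligase of postreplication repair (−0.69), and *ctp1+*, a cofactor of DNA end resection (−0.51). *ctp1+* was also called lower in MMS (−0.59) but was called higher with MMS in both ploidies, by 0.71 and 0.63. The member *rrp1+*, a helicase of the recombination pathway, had ratios of 0.785 in NT and 0.766 in MMS and MMS/NT ratios of 1.01 and 0.983.

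*tra1+*, the largest subunit of the SAGA histone acetyltransferase and the longest member, gave 497, 602 and 613 CPM in Haploid NT, 556, 489.9 and 487 in Haploid MMS, 302, 329 and 327 in Diploid NT and 343, 402 and 391 in Diploid MMS, ratios of 0.559 in NT and 0.741 in MMS. Its diploid values were higher with MMS than without and still below all haploid values. *hht2+*, 1 of 3 genes for histone H3 with nearly identical coding sequences, was the most abundant member, at 1453, 1460.5 and 1379.6 CPM in Haploid NT, 1399, 1527 and 1498 in Haploid MMS, 1155, 1056 and 1173 in Diploid NT and 1274, 1158 and 1139.5 in Diploid MMS (ratios 0.788 in NT and 0.807 in MMS). The log2 fold changes of *hht2+* were -0.27 ± 0.10 (SE) in NT and -0.31 ± 0.10 (SE) in MMS, those of *hht1+* 0.68 and −0.02 and those of *hht3+* 0.40 and −0.09. None of the 3 genes was called in either treatment, differences between them were not tested, and reads of these genes may have been divided by the counting.

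The lowest ratios belonged to genes of several unrelated roles. SPAC1783.01, annotated as methionine synthase reductase, gave 105, 142 and 118 CPM in Haploid NT, 118, 111 and 98.5 in Haploid MMS, 54.6, 49.3 and 56.4 in Diploid NT and 68.4, 56.8 and 64.5 in Diploid MMS. Haploid and diploid values were far apart in both treatments, with ratios of 0.4402 in NT and 0.5795 in MMS. SPBC30B4.09, a protein of unknown function with 156 coding bases, gave 124, 169.7 and 161 CPM in Haploid NT, 158, 146 and 155 in Haploid MMS, 78.3, 59.8 and 80.6 in Diploid NT and 91.4, 68.97 and 103 in Diploid MMS, ratios of 0.481 in NT and 0.575 in MMS. Diploid replicate 2 was the lowest library of its group in both treatments. *mam3+*, the cell surface adhesin with which M cells bind P cells, gave 133, 161 and 142 CPM in Haploid NT, 171, 159 and 149 in Haploid MMS, 88.7, 78.5 and 72.3 in Diploid NT and 105, 85.9 and 77.3 in Diploid MMS, ratios of 0.5497 in NT and 0.5599 in MMS. Here the ratio was close with and without MMS, and no other of the 27 tested mating and pheromone genes was called lower in either treatment. *bit2+*, a TORC2-associated protein of the HbrB family, was the faintest member, at 12.8, 16.9 and 14.8 CPM in Haploid NT, 14.3, 13.7 and 15.6 in Haploid MMS, 9.02, 5.43 and 9.20 in Diploid NT and 9.39, 5.18 and 7.19 in Diploid MMS. It had the lowest ratio in MMS (0.499, with 0.532 in NT), but Diploid replicate 2 was far below its fellows in both treatments and edgeR called it in neither.

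Across all tested genes edgeR called 3.82% lower in Diploid NT than in Haploid NT and 0.349% lower in Diploid MMS than in Haploid MMS. Among the 82 members, all of which passed the count filter, 40 were called in NT and 3 in MMS, namely SPAC1783.01 (-0.79 ± 0.13, SE, in MMS), SPBC30B4.09 (-0.81 ± 0.15) and *mam3+* (-0.84 ± 0.14). A call with a log2 fold change below −0.58 was made for 19 members in NT (1.79% of all genes) and for the same 3 in MMS (0.24%). No member was called higher, beside 1.88% of all genes in NT and 0.48% in MMS. Since the rule used these contrasts, the counts describe the members and support nothing. The call in NT was made in 4 of 5 members of actin and endocytosis, 4 of 6 of replication, telomeres and chromatin, 3 of 4 of proteolysis and autophagy, 5 of 10 of mitochondria and metabolism, 2 of 5 of size control and cytokinesis and 2 of 9 of signalling and stress. In the remaining roles it was made in 2 of 3 members of mating and spore killers, 2 of 4 of chromosome segregation and 6 of 11 little characterized ones. It was also made in 3 of 7 of channels and transporters, 3 of 7 of lipids, membranes and secretion and 4 of 11 of RNA processing and nuclear pore. The share called among all genes of each role is not given. DESeq2 called 62 members lower in NT, beside 345 of the 4584 genes (7.53%), and 42 in MMS, beside 114 genes (2.49%). The count of 40 in NT was 15, 20 and 19 without Diploid NT 1, 2 and 3, and 19 and 26 without Haploid NT 2 and 3. The count of 3 in MMS was 0 without Diploid MMS 2, Haploid MMS 1 or Haploid MMS 2, 1 without Haploid MMS 3, and 24 without Haploid NT 1. For the fits without 1 library the share of all genes called is not given. Whether these shifts are particular to the members was not tested.

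Actin patches and endocytosis held 5 members, all with ratios of 0.72 or less in NT. *end4+*, which couples the endocytic coat to actin, gave 744, 1095 and 1059 CPM in Haploid NT, 736, 945 and 933 in Haploid MMS, 587, 577 and 573 in Diploid NT and 712, 661 and 682 in Diploid MMS. Haploid culture 1 was far below the other haploid cultures in both treatments, and it was still above every diploid library (ratios 0.599 in NT and 0.786 in MMS). *its3+*, the kinase that makes PI(4,5)P2 at the plasma membrane, gave 599, 605 and 587 CPM in Haploid NT, 512, 536 and 526 in Haploid MMS, 374, 393 and 369.9 in Diploid NT and 425, 413 and 402 in Diploid MMS, with little spread inside any group and no overlap (ratios 0.635 in NT and 0.788 in MMS). *wsp1+*, the WASP homolog that activates the Arp2/3 complex, *bbc1+*, an SH3 protein, and *syj2+*, an inositol polyphosphate 5-phosphatase, had ratios of 0.689, 0.626 and 0.718 in NT and of 0.788, 0.684 and 0.823 in MMS.

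Both mechanosensitive channel genes of the ER were members. *msy1+* had ratios of 0.669 in NT and 0.7697 in MMS and *msy2+* of 0.672 in NT and 0.721 in MMS, and in neither did a diploid library reach a haploid one. The other 5 transporter genes ran from *ymc1+*, a mitochondrial carrier (ratios 0.577 in NT and 0.680 in MMS), to SPAC3A12.06c, a sodium/calcium exchanger (0.806 in NT and 0.806 in MMS). *itr1+*, the myo-inositol transporter, gave 478, 339 and 305 CPM in Haploid NT, 466, 364 and 331 in Haploid MMS, 248, 233 and 249 in Diploid NT and 277, 259.5 and 264 in Diploid MMS, and the efflux pump gene *bfr1+* had ratios of 0.7599 in NT and 0.721 in MMS. In *itr1+*, *bfr1+* and SPAC14C4.07 haploid culture 1 was the highest in both treatments, the reverse of *cut1+* and *end4+*.

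Signalling genes, apart from *bit2+*, covered nutrient and stress pathways. *sea2+* of the SEACAT complex upstream of TORC1 (0.756 in NT and 0.816 in MMS), *git5+*, the G protein beta subunit of glucose sensing (0.713 in NT and 0.773 in MMS), *mkh1+*, the MEK kinase of the cell integrity pathway (0.762 in NT and 0.806 in MMS), and *hri1+*, an eIF2 alpha kinase (0.724 in NT and 0.726 in MMS), had ratios between 0.71 and 0.82. The stress factor gene *pcr1+*, whose product pairs with Atf1, had ratios of 0.8197 in NT and 0.776 in MMS and *hsr1+*, a zinc finger factor of the stress response, of 0.627 in NT and 0.821 in MMS. Among 35 autophagy genes, a list that also held *tor2+*, none of the 4 called lower in NT was a member (*tor2+*, *atg13+*, *atg20+* and *atg1802+*, from −0.45 to −0.77), and the 1 member, *atg3+*, of the Atg8 conjugation system, was not called (ratios 0.747 in NT and 0.8297 in MMS).

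RNA processing and the nuclear pore gave 11 members. *brr2+*, the helicase that unwinds U4/U6 in the spliceosome, gave 505, 876 and 823 CPM in Haploid NT, 668, 750.4 and 736 in Haploid MMS, 437, 468 and 458 in Diploid NT and 503, 501 and 598 in Diploid MMS. Haploid NT 1 was far below the other haploid libraries and Diploid MMS 3 lay above it, so *brr2+* was separated within each treatment only (ratios 0.619 in NT and 0.743 in MMS). *nup146+* and *pom34+* of the nuclear pore had ratios of 0.7295 in NT and 0.818 in MMS and of 0.816 in NT and 0.812 in MMS. Of 27 nuclear pore genes, *nup146+*, *nup124+* (−0.83) and *nup131+* (−0.41) were called lower in NT and none in MMS. Further members were *uap2+* of the U2 snRNP, the poly(A)-binding protein gene *nab2+*, the helicase gene *ddx27+*, the tRNA methylation gene *trm732+*, the importin gene *kap104+* and *spp41+*, the second most abundant member at 739 to 1466 CPM, with NT ratios from 0.662 (*trm732+*) to 0.771 (*kap104+*).

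Mitochondrial and metabolic members numbered 10, and all had MMS/NT ratios above 1 in diploids (1.14 to 1.24). They included *kgd1+* of the citric acid cycle (0.7803 in NT and 0.789 in MMS), *ndi1+*, a single-subunit NADH dehydrogenase (0.7196 in NT and 0.821 in MMS), *atp15+* of ATP synthase (0.746 in NT and 0.796 in MMS), *cox5+* of cytochrome oxidase (0.8296 in NT and 0.823 in MMS), *bcs1+*, which inserts the Rieske protein into complex III (0.705 in NT and 0.7997 in MMS), and *ach1+*, an acetyl-CoA hydrolase (0.603 in NT and 0.799 in MMS). Lipid, membrane and secretion members numbered 7, with the lowest NT ratios in *gto2+*, an alpha-glucosidase (0.588 in NT and 0.725 in MMS), and SPCC594.04c, of the steroid oxidoreductase family (0.639 in NT and 0.686 in MMS). The others were *yip3+*, a Rab GTPase-binding protein (0.7601 in NT and 0.807 in MMS), *erg32+* of ergosterol synthesis (0.707 in NT and 0.8202 in MMS), *osh41+*, an oxysterol-binding protein, *dsc1+* of the ligase complex that activates SREBP, and *gaa1+* of GPI anchoring, the latter 3 with NT ratios between 0.773 and 0.819. Of 45 fatty acid, lipid and sterol genes, *erg32+* was the 1 called lower in NT and 5 were called higher. Proteolysis was represented by *tpp2+*, a giant tripeptidyl-peptidase (0.681 in NT and 0.815 in MMS), *htr11+*, a serine protease (0.611 in NT and 0.739 in MMS), and *spg4+*, an AAA protein (0.5497 in NT and 0.763 in MMS).

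The spore killer family *wtf* gave 2 members, *wtf9+* (0.592 in NT and 0.734 in MMS) and *wtf7+* (0.825 in NT and 0.816 in MMS). *wtf7+* had the narrowest separation of all members in NT, with its highest diploid value 0.00378% below its lowest haploid value of 37.4 CPM. Of 18 *wtf* genes tested, *wtf9+*, *wtf19+* (−0.75) and *wtf23+* (−0.79) were called lower in NT, none was called in MMS, and the median fold change was −0.40 in NT and −0.24 in MMS. The *wtf* genes resemble one another in sequence, so reads may have been shared or discarded in the counting. SPAC977.18, an uncharacterized gene 31.1 kb from the end of chromosome I, gave 454, 467 and 376 CPM in Haploid NT, 549.8, 440.2 and 362 in Haploid MMS, 237, 244 and 258 in Diploid NT and 333, 229.9 and 295 in Diploid MMS, ratios of 0.569 in NT and 0.634 in MMS. No diploid library reached a haploid one, but Diploid MMS 1 and Haploid MMS 3 were close. Genes near the chromosome ends of fission yeast can have near copies at other ends, which makes its counts less certain.

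MMS moved the members little by construction, and the 2 ploidies were not centred alike. The median MMS/NT ratio was 0.984 in haploids (0.801 to 1.23), beside 0.953 over all genes, and 1.11 in diploids (0.866 to 1.25), beside 1.03. The ratio was above 1 in 36 members in haploids and in 67 in diploids. It was above 1 in both for 35, below 1 in both for 14, and below 1 in haploids with a value above 1 in diploids for 32. Only 29 members stayed within 10% of 1, taken as 0.9 to its inverse, in both ploidies, among them *taz1+*, *cut2+* and *fic1+*. The 5 members of size control and cytokinesis had ratios below 1 in both ploidies. The test found 1 member, *pom34+*, higher in Haploid MMS than in Haploid NT (3.58% of all genes were called higher and 2.29% lower) and 0 members changed in diploids (0.916% and 0.633%), where 13 (15.9%) had an unadjusted p under 0.05, close to the 13.6% of all genes, and DESeq2 called 1 member and 243 genes. No member was called in the interaction of ploidy and MMS, and 0.0% of all genes were, with 0 members and 3.38% of genes under an unadjusted p of 0.05, and 0 members and 1 gene called by DESeq2. With culture as a block, which the split cultures call for, 7 members were called higher in haploids, with *pom34+* at 0.36, *nab2+* at 0.34 and *cox5+* at 0.33 on the log2 scale, and 5 in diploids, with *cut1+* at 0.30 and *tpp2+* at 0.29. In that fit 1065 and 504 of the 4584 genes were called. For the members called there, little movement with MMS means a ratio inside the band and not the lack of a measurable change.

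**Figure D4:**
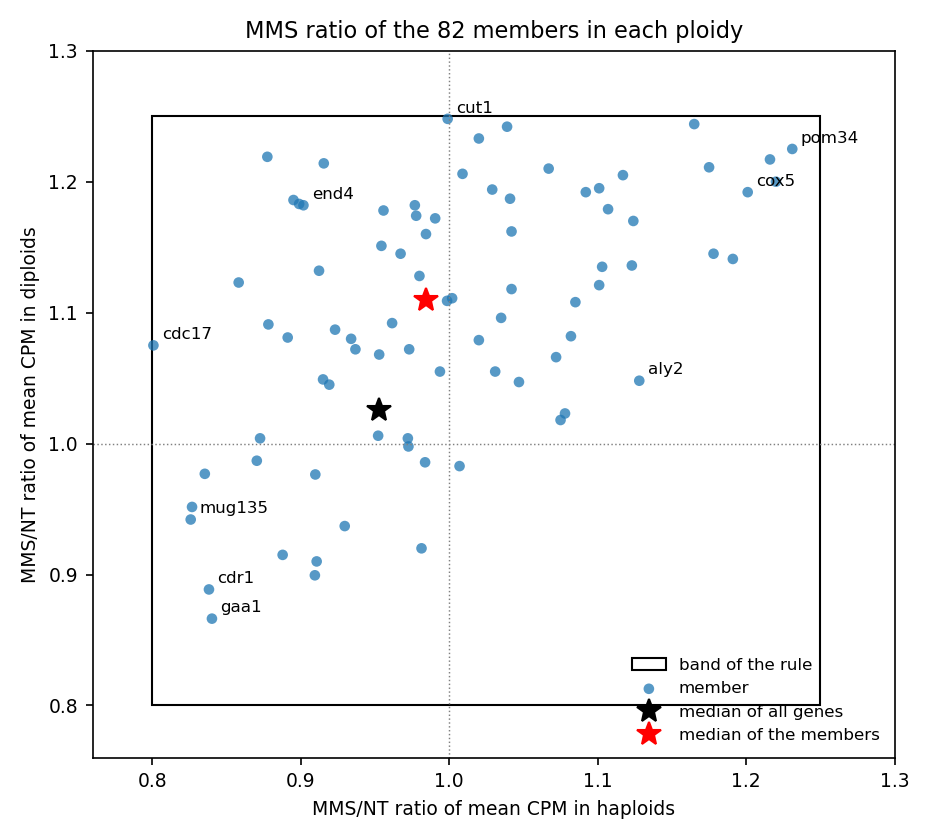
MMS/NT ratio of mean CPM of each member (points) in haploids (horizontal) and diploids (vertical). The box is the band of the rule, 0.8 to 1.25, and the stars are the medians of the members (red, 0.984 and 1.11) and of all 4450 genes (black, 0.953 and 1.03). Many members crowd against the upper edge of the band for diploids, where *cut1+* lies at 1.248.

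Length was a feature that the rule did not use. The median coding length was 1748 bases in the members and 1194 in all genes, and 16 members (19.5%) exceeded 3000 coding bases against 7.68% of genes. Members made up 1.36% of genes under 1 kb and 7.35% of those of 5 kb or more, where they were 5 of 68, *tra1+*, *tel1+*, *brr2+*, *cut1+* and *bgs1+*. Over the other genes the median Diploid/Haploid ratio also declined with coding length, from 0.971 to 0.908 in NT and from 1.02 to 0.952 in MMS between those classes. The part of length in the membership was not tested. A single coding exon was found in 65.9% of members and 53.5% of genes, the most coding exons (7) were in *osh41+*, and TATAAA, the TATA box, occurred before 25 members (30.5% beside 45.6%). Mean abundance per length was close to that of all genes, with medians of 63.2 and 60.7 CPM per kb. The rule used CPM not divided by length, and on that scale the medians were 168.5 in members and 120.9 in all genes.

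**Figure D5:**
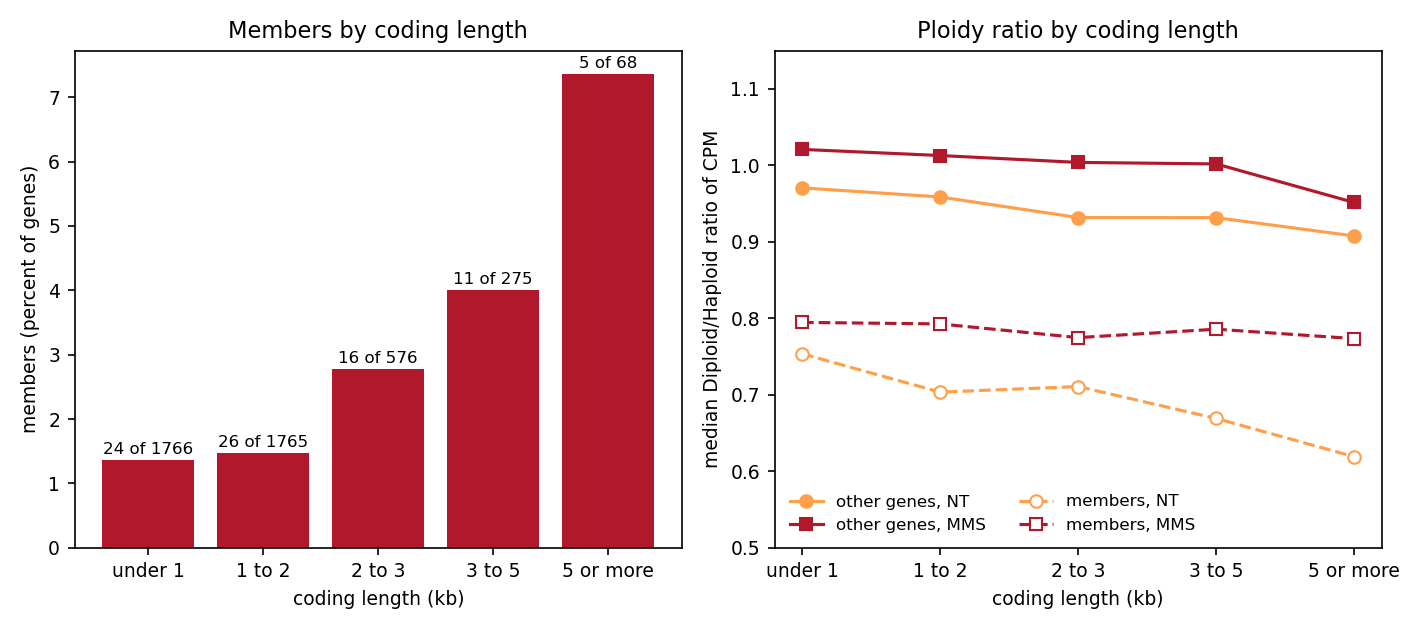
Share of genes that were members (left, percent, bars from 0, counts above) and median Diploid/Haploid ratio of CPM (right) in 5 classes of coding length. Members rise from 1.36% of the shortest to 7.35% of the longest class, and the median ratio of the other genes (filled symbols) declines from 0.971 to 0.908 in NT and from 1.02 to 0.952 in MMS.

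The members were spread over the genome, with 41 on chromosome I, 26 on II and 15 on III (50.0%, 31.7% and 18.3%, beside 45.4%, 36.4% and 18.2% of genes). There were 3 pairs of adjacent members, *cdr1+* with *bcs1+*, SPBC1685.04 with *htr11+*, and *nab2+* with SPAC14C4.07. The features of the last pair lie on opposite strands and overlap by 21 bases. Exons of 29 members overlap a gene on the opposite strand (35.4%, beside 39.2% of genes). With no strand setting of the counting stated, reads from the overlapping stretch of such pairs cannot be told apart. The 29 include *cut1+*, *bgs1+*, *mam3+*, *tra1+*, *hht2+*, *its3+*, *bbc1+*, *itr1+*, *ymc1+*, *hsr1+*, *sea2+*, *atg3+*, *nup146+*, *pom34+*, *nab2+*, *kgd1+*, *erg32+*, *dsc1+*, *gaa1+*, SPAC14C4.07, SPCC594.04c, SPAC1783.01 and SPAC977.18.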

How the data were processed

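RNA-seq libraries of haploid and diploid *S. pombe*, untreated or treated with MMS, were grouped by their labels, 3 per condition. The authors aligned paired-end reads with STAR 2.7.0e and counted them per gene with featureCounts, and the deposited table holds raw counts for genes and 92 ERCC standards. The strand setting, genome build and annotation version are not stated. Its 3 replicates per condition are biological according to the study's methods. The columns of other samples numbered 0.

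CPM were computed over gene rows without ERCC. The 82 genes were found by the rule given at the start of the results. The members, role groups and gene lists were chosen with earlier results of these data known; *pcr1+*, entered by mistake among metal homeostasis genes, was taken out of that list. The lists with no member (spindle checkpoint, heterochromatin, metal homeostasis, ribosomes, ribosome biogenesis, RNA polymerases, aminoacyl-tRNA synthetases and vesicle traffic) are not described. Genes named are members that the study's text names, members of the lists, the 12 with the lowest mean log2 ratio, the 6 most abundant, the longest gene and that with most exons, other members by role, those next to a limit, and genes of a list with a member.

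Fold changes came from edgeR 4.0.16 (R 4.3.3, quasi-likelihood, TMM, Benjamini-Hochberg over 4584 genes, 1 mean per group over 12 libraries), after removing each gene that had under 5 reads in at least 2 libraries and 2 duplicated genes, SPAC977.09c and SPBC1348.10c. The script was tested on simulated data. Spike-in factors were medians of ratios over the 60 standards counted in every library. DESeq2 1.42.0, other scalings, filters, blocks and leaving out each library were the alternatives. Deviations of same-numbered NT and MMS libraries correlated by 0.441 to 0.711. Those of other numbers within a ploidy correlated by −0.689 to 0.571, the highest between Haploid NT 2 and Haploid MMS 3. The study's methods say that cultures were split, and the same number was taken to mean the same culture, which is not stated. Across ploidies the same numbers correlated by −0.342 to 0.371 and pair nothing. Coordinates are those of the deposited table; coding sequence lay inside the deposited feature in 4854 of 4855 genes of RefSeq ASM294v3, and 2248 of 2272 spliced genes had identical coding junctions.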

Additional observations from a re-analysis of the deposited data

How the results depend on the processing

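Scaled to the ERCC standards, the rule found 0 genes, 0 members were called lower in NT, 0 lower in MMS and 0 in Haploid MMS against Haploid NT, and the median log2 fold change of the members reversed from −0.42 to 0.44 in NT and from −0.35 to 1.07 in MMS. The direction of the members is thus a statement on shares of mRNA. Without Haploid NT 1, an alternative chosen after seeing the data, the spike-in scaled median in NT was 1.72 in place of 1.35. The rule found 26 genes at a ratio limit of 0.77, 192 at 0.9, 29 with a band of 0.9 to its inverse and 152 with no band. It found 78 with TMM library sizes (64 shared with the 82), 77 to 137 when 1 library was left out (137 without Diploid MMS 3), and 187 without both libraries of haploid culture 1, also chosen after seeing the data. The other limits on mean CPM gave 81 and 82, and 32 members were found whichever library was left out.

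DESeq2 called 62 members lower in NT (345 genes in all), 42 lower in MMS (114 genes), 2 in haploids with MMS (566 genes) and 1 in diploids with MMS (243 genes). Leaving out 1 library gave 15 to 48 calls in NT, 0 to 24 in MMS, 0 to 4 for MMS in haploids, 0 to 4 for MMS in diploids (4 in both without Diploid MMS 3) and 0 to 0 for the interaction, and medians of −0.44 to −0.38 in NT and −0.39 to −0.31 in MMS. With the replicate number as a block 6 members were called lower in MMS. With culture as a block 7 were called for MMS in haploids and 5 in diploids. The blocks moved no other count by over 1.5 times. The share of all genes called is not given for the fits without 1 library or with the replicate number as a block. The cause of these differences was not tested. With 3 libraries a group, a ratio near 0.83 cannot be placed firmly on either side of the limit.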
